A study of Mus musculus with 4 samples.

Results

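The interferon gamma axis was followed through 9 genes: the ligand Ifng, the receptor chains Ifngr1 and Ifngr2, the kinases Jak1 and Jak2, the response factors Irf1 and Irf8, and the inhibitors Socs1 and Socs3. The members were the rows of the deposited matrices that carry these symbols, 9 of 32285 genes, and each symbol matched 1 row. Mouse tumors were profiled by single-cell RNA sequencing in 4 libraries, 1 per group. The tumors grew under the skin of C57BL/6 mice aged 6 to 8 weeks from MC38, a mouse colon cancer line, carrying wild-type RAC1 (WT) or the RAC1 A159V substitution introduced by CRISPR (A159V). Within each genotype the host received an IgG isotype control or an anti-PD1 antibody, which blocks an inhibitory receptor of T cells, at 100 µg every 3 days from day 3, and tumors were taken on day 13. The study reports the A159V mutation of the MC38 line as homozygous. Its results give the line as clone 9 of 3 knock-in clones wherever no other clone was named. The genotype thus stands for 1 clone here. CD45+ and CD45- cells were separated on beads and remixed at 2 to 1, so the balance of immune and other cells was set by hand. The number of mice behind a library is not given in the sources used here.

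Between 7430 and 9311 barcodes per library were deposited, and 6466 to 8248 cells per library passed the filters, with a median of 3352 to 4175 UMIs (unique molecular identifiers, each counting 1 captured RNA molecule). Pairs of libraries shared 13 to 22 barcodes. Cells were placed in classes by the UMIs of marker genes, and 8.55 to 10.0% of cells per library stayed unassigned. The class named tumor-like rests on Rhox5, with a UMI in 99.7% of its cells, Prl2c2 (81.6%) and Prl2c3 (64.0%). The keratins Krt8, Krt18 and Krt7, which mark epithelial cells, were near 0 in it, with a UMI in 0.703%, 0.344% and 0.359% of cells. It held 1882 cells in WT IgG and 2758 in A159V IgG, with 2036 in A159V anti-PD1, but 7 in WT anti-PD1, for which no tumor ratio was formed. That library held 1729 stromal-like cells, against 167, 185 and 182 in the others.

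With 1 library per group there is no replicate check, no test was possible and no p-value is given. A level is the UMIs of a gene summed over a class, per 1000000 UMIs of that class (CPM), with an exact Poisson 95% interval in brackets. A log2 ratio compares 2 libraries on the log2(CPM + 1) scale, with a 95% interval from the counts, and a gene is called past 2-fold by size alone, provided it reaches 10 CPM in either library. All intervals cover counting error only and say nothing of the spread between tumors. WT IgG enters 2 of the 3 comparisons, and so does A159V IgG, so the ratios are not independent of each other. Fewer cells of a state within a class and less RNA per cell cannot be told apart in these sums.

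Interferon gamma is made mainly by activated T cells and natural killer (NK) cells. It binds a receptor built from a ligand-binding chain, IFNGR1, and a signaling chain, IFNGR2, which carry the kinases JAK1 and JAK2. Their signal reaches gamma-activated sites (GAS) near target genes such as Irf1, and IRF1 then acts on further genes of antigen presentation and T cell recruitment. SOCS1 and SOCS3 are induced inhibitors of JAK signaling. In tumors the pathway is known both for raising antigen presentation and for inducing the PD1 ligand, the product of Cd274.

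The start regions of the members were read for the GAS letters TTCNNNGAA and for a spaced repeat of the kind that interferon regulatory factors bind (GAAA, 2 bases of any kind, GAAA), each on both strands. The RefSeq windows (build GRCm38.p6) hold 300 bases, 250 before and 50 after each transcript start, and all 9 members matched, with 11 windows. Of all 32851 windows, 8.30% hold a GAS match and 3.44% a match to the repeat. Among the members, 4 genes have a GAS match (Ifng, Irf1, Irf8 and Socs3) and 1 has the repeat (Socs1). The windows of the response factors and inhibitors are shown because their genes are the read-outs of the pathway described below, and capitals mark the matches. The Irf1 window is chr11:53769764-53770063 on the + strand and the Irf8 window chr8:120736108-120736407 on the + strand, each the first of that gene's windows. The Socs3 window is chr11:117969317-117969616 and the Socs1 window chr16:10785487-10785786, both on the - strand, and in Socs1 2 matches overlap.
Irf1: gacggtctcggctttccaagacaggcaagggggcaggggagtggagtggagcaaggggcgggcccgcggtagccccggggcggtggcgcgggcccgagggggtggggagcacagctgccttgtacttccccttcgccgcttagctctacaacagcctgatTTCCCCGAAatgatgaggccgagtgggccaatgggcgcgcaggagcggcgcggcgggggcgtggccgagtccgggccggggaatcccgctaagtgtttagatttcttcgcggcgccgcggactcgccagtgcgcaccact
Irf8: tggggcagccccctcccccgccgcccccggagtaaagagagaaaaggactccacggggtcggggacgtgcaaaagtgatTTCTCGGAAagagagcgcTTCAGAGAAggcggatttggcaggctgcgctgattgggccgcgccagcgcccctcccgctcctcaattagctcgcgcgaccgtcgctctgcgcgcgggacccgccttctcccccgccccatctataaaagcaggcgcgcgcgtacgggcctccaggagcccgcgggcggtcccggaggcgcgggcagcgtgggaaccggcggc
Socs3: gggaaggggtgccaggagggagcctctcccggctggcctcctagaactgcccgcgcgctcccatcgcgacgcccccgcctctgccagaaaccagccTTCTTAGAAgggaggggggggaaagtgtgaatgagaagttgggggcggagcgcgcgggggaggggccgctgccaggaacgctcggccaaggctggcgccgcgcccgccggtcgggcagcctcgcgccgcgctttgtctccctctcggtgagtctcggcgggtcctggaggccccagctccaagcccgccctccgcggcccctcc
Socs1: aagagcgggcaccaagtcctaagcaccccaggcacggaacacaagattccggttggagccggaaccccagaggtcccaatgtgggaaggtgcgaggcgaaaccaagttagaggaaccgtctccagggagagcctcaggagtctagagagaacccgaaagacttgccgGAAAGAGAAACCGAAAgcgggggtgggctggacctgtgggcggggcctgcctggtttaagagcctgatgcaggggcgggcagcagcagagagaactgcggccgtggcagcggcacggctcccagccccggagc
These are matches of letters in a window and no measure of binding in these cells.

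Ifng (ENSMUSG00000055170, chr10:118441046-118445892 on GRCm38), the ligand, was concentrated in lymphocytes. In CD8 T-like cells its level was 334 CPM [308 to 363] in WT IgG, 157 [128 to 190.2] in A159V IgG, 318 [292 to 346] in WT anti-PD1 and 362 [331 to 395] in A159V anti-PD1. A159V IgG stood alone below the other libraries, and the intervals of WT IgG and WT anti-PD1 overlapped. In each of the 4 libraries CD8 T-like cells held the highest Ifng level of any class of 50 or more cells, with an interval above that of the next class. They carried 66.4% of all Ifng UMIs in WT IgG, 46.1% in A159V IgG, 62.3% in WT anti-PD1 and 72.8% in A159V anti-PD1. The A159V IgG library held 219 Ifng UMIs in all, against 870, 895 and 683 in the WT IgG, WT anti-PD1 and A159V anti-PD1 libraries.

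**Figure D1:**
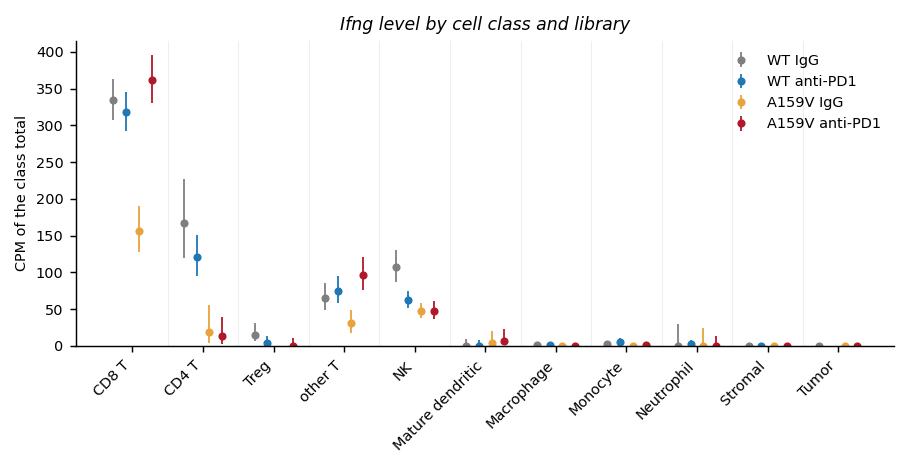
Level of Ifng in CPM of the class total (y axis) by cell class (x axis), 1 point per library with its exact Poisson 95% interval. The CD8 T-like points of WT IgG, WT anti-PD1 and A159V anti-PD1 lie between 318 and 362 CPM and that of A159V IgG at 157, and the macrophage and tumor points lie near 0.

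In NK-like cells Ifng was at 107 CPM [87.2 to 130.2] in WT IgG, 47.2 [37.5 to 58.6] in A159V IgG, 62.6 [51.9 to 74.9] in WT anti-PD1 and 47.8 [37.0 to 60.9] in A159V anti-PD1. WT IgG was the high library, and the intervals of the A159V libraries overlapped. In CD4 T-like cells the levels were 167, 19.0, 121 and 13.7 CPM in WT IgG, A159V IgG, WT anti-PD1 and A159V anti-PD1, from 41, 3, 75 and 3 UMIs. T-like cells without a subset marker gave 65.5, 30.7, 74.6 and 96.3 CPM in the same order. Macrophage-like cells, which should lack the transcript, were at 0 to 1.08 CPM, and tumor-like cells of the 3 large libraries at 0.0225 to 0.112 CPM.

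The CD8 T-like log2 ratio of Ifng was -1.09 (-1.39 to -0.79) for A159V IgG over WT IgG and 1.2 (0.90 to 1.51) for A159V anti-PD1 over A159V IgG, while WT anti-PD1 over WT IgG gave -0.07 (-0.24 to 0.10). In NK-like cells the ratios were -1.17 (-1.58 to -0.75), 0.02 (-0.44 to 0.48) and -0.77 (-1.14 to -0.39) in that order. In CD8 T-like cells Ifng was the 1 of 8 members past 2-fold for A159V IgG over WT IgG, where 2.64% of all genes were past 2-fold lower. It was also the 1 of 8 members past 2-fold for A159V anti-PD1 over A159V IgG, where 3.57% of all genes were past 2-fold higher. Both calls ended with classes taken from clusters, at -0.95 and 0.98, and the second also as the mean of each cell's CPM, at 0.85. In NK-like cells it was the 1 of 8 for A159V IgG over WT IgG, beside 2.09% of all genes lower. This call ended as the mean of each cell's CPM (-0.89) and without the 5 cells richest in Ifng (-0.91). No NK-like member was past 2-fold for A159V anti-PD1 over A159V IgG (2.53% of all genes were higher and 1.51% lower).

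These levels rested on few cells. A UMI of Ifng was seen in 127 of 343 CD8 T-like cells of WT IgG, 38 of 202 of A159V IgG, 164 of 456 of WT anti-PD1 and 93 of 353 of A159V anti-PD1. Cells with 10 or more Ifng UMIs numbered 17, 1, 7 and 10 in this order and held 57.3%, 14.9%, 27.4% and 60.8% of the class's Ifng UMIs, with 1 cell of A159V anti-PD1 at 90 UMIs. Because UMIs of 1 cell are not independent, the intervals of the Ifng levels are too narrow. Without the 5 cells richest in Ifng in each library, the CD8 T-like levels were 248, 98.5, 251 and 203 CPM for WT IgG, A159V IgG, WT anti-PD1 and A159V anti-PD1, so that A159V anti-PD1 lay below both WT libraries and above A159V IgG.

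**Figure D2:**
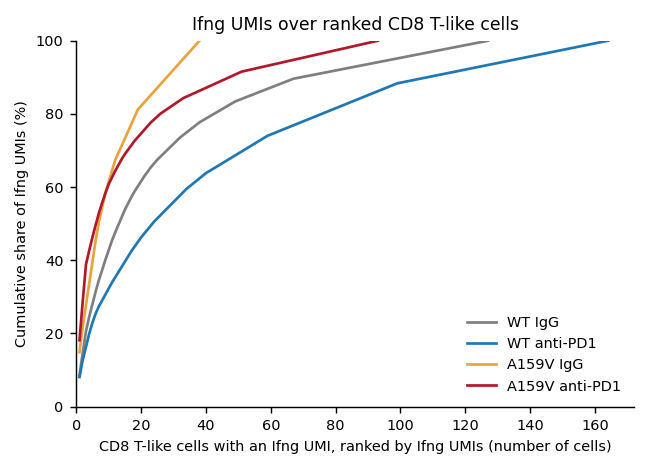
Cumulative share of Ifng UMIs in percent (y axis) over CD8 T-like cells with at least 1 Ifng UMI, ranked from the highest (x axis, number of cells), 1 line per library. The first 5 cells hold 46.3% of the UMIs in A159V anti-PD1 and 22.9% in WT anti-PD1.

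Cells were also counted in place of UMIs. After each cell was thinned to 1500 UMIs, the share of CD8 T-like cells with an Ifng UMI was 20% (exact Clopper-Pearson 95% interval 15.8 to 24.7) in WT IgG, 13.6% (8.83 to 19.7) in A159V IgG, 23.8% (19.8 to 28.1) in WT anti-PD1 and 18.2% (14.2 to 22.9) in A159V anti-PD1. The intervals of A159V IgG and WT IgG overlapped, as did those of the A159V libraries. Thinned to 1000 UMIs instead, the shares were 17.3%, 6.77%, 16.7% and 11%. There the interval of A159V IgG (3.65 to 11.3) lay below that of WT IgG (13.4 to 21.7). Thinning was a random draw made separately for each depth and not repeated. Depth and the draw therefore cannot be told apart in this change of overlap. Thinning to 1500 UMIs left out 13, 33, 27 and 35 cells in this order, and the unthinned shares were 37.0%, 18.8%, 36.0% and 26.3%, at median depths of 4183, 2516.5, 3436.5 and 3053 UMIs. In macrophage-like cells the thinned share was 0 to 0.285% (the count of 0 in each A159V library allows up to 0.367% in A159V IgG and 0.283% with the antibody), at median depths of 3496.5, 2221.5, 4253 and 3082 UMIs. In NK-like cells the thinned shares were 10.7%, 6.07%, 7.95% and 5.43%, with intervals that all overlapped.

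In the smaller T classes single cells decided the Ifng values. The ratio of 1.62 in T-like cells without a subset marker for A159V anti-PD1 over A159V IgG turned on 1 cell with 51 UMIs, and without the 5 richest cells the levels were 13.3 and 11.1 CPM. In CD4 T-like cells of WT IgG the 5 richest cells held 90.2% of the Ifng UMIs.

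The make-up of the CD8 T-like class differed between libraries. Clustering on variable genes, with the members left out, put most of these cells in clusters 11 and 4. The leading genes of cluster 11 included Cd8a, Ifng itself, Cxcr6 and Pdcd1. Those of cluster 4 included Cd8a, Dapl1 and Nsg2, and not Ifng. Cluster 11 held 72.6% of the class in WT IgG, 57.4% in A159V IgG, 83.3% in WT anti-PD1 and 72.2% in A159V anti-PD1, so the share was lowest in A159V IgG, the library lowest in Ifng, and highest in WT anti-PD1, which did not exceed WT IgG in Ifng. Within cluster 11 the Ifng log2 ratio was -0.84 for A159V IgG over WT IgG and 0.96 for A159V anti-PD1 over A159V IgG, in the same direction and short of 2-fold. Stromal markers in CD8 T-like cells summed to 594 CPM in WT anti-PD1 and to 35.7 to 57.5 CPM elsewhere, and their part in the results was not tested. The make-up of the CD4 T-like class differed as well. Cluster 14 held 94.7 to 98.6% of the regulatory T-like (Treg-like) cells of each library. Of the CD4 T-like cells it held 29.2% in WT IgG, 57.3% in A159V IgG, 24.5% in WT anti-PD1 and 33.3% in A159V anti-PD1. The part of this in the CD4 T-like Ifng levels was not tested.

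A list of 12 genes that induce Ifng or carry its inducers' signals, among them Stat4, Tbx21, Eomes and receptor chains of interleukin 12 and interleukin 18, had 8 members with at least 10 CPM in CD8 T-like cells. For A159V IgG over WT IgG none of them was past 2-fold, where 3.69% of all genes were past it higher and 2.64% lower, and 1 lay above 0, with a median log2 ratio of -0.58 beside 0.03 over all genes. Tbx21, which encodes the T-bet factor, was the lowest at 258 CPM in WT IgG and 135 in A159V IgG (-0.93), and Eomes, a related factor, the highest (0.35). For A159V anti-PD1 over A159V IgG 2 of 8 were past 2-fold higher, beside 3.57% of all genes, and the median was 0.69 beside 0.05, from -0.59 for Eomes to 1.21 for Il18rap, a chain of the interleukin 18 receptor. For WT anti-PD1 over WT IgG 1 of 8 was past 2-fold higher, near the 9.26% of all genes, with a median of 0.33 beside 0.20. In NK-like cells the medians were -0.57 beside -0.02 for A159V IgG over WT IgG and 0.61 beside 0.14 for A159V anti-PD1 over A159V IgG. For WT anti-PD1 over WT IgG the NK-like median was 0.77 beside 0.37, and 3 of 8 were past 2-fold higher, beside 17.1% of all genes. Il12rb2, an interleukin 12 receptor chain, was at 188 CPM in NK-like cells of WT IgG and 91.4 in A159V IgG, with 282 in WT anti-PD1 and 199 in A159V anti-PD1.

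The receptor chains were distributed differently over the classes. Ifngr1 (ENSMUSG00000020009, chr10:19591949-19610229), the ligand-binding chain, was highest in lymphocytes. Its CD8 T-like levels were 451, 539, 570.3 and 471 CPM in WT IgG, A159V IgG, WT anti-PD1 and A159V anti-PD1, and in NK-like cells at 619, 464, 844 and 554. CD4 T-like cells held 916, 816, 490.5 and 850.3 CPM. Macrophage-like cells stood at 115, 134, 221 and 132 CPM, with WT anti-PD1 apart above the rest, and monocyte-like cells at 177, 217, 295 and 215.

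Ifngr2 (ENSMUSG00000022965, chr16:91547072-91565623), the signaling chain, was low in CD8 T-like and NK-like cells, at 1.71 to 7.75 and 1.45 to 5.26 CPM, from at most 10 UMIs in a library. Macrophage-like cells held 131, 130.1, 109 and 108 CPM and monocyte-like cells 115, 92.7, 109.6 and 101. Thinned to 1500 UMIs, 14.9 to 19.4% of macrophage-like cells had an Ifngr2 UMI, against 0.233 to 1.18% of CD8 T-like cells. Across 47 class-by-library profiles of at least 50 cells, which share libraries and depth, Pearson's r between the log2 levels of the chains was -0.53, as a description.

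**Figure D3:**
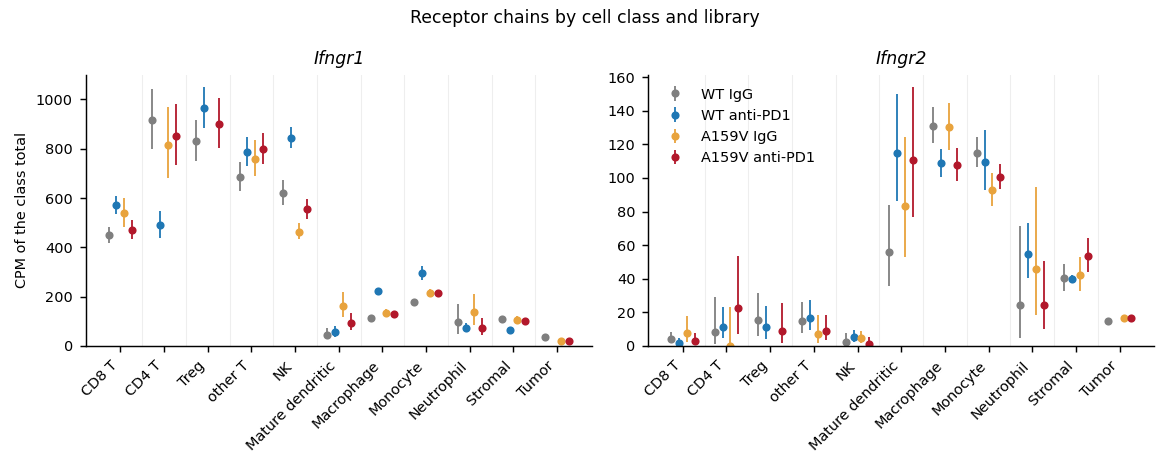
Levels of Ifngr1 and Ifngr2 in CPM of the class total (y axes) by cell class (x axes), 1 panel per gene and 1 point per library with its exact Poisson 95% interval. In CD8 T-like cells Ifngr1 lies between 451 and 570.3 CPM and Ifngr2 between 1.71 and 7.75, and in macrophage-like cells Ifngr2 lies between 108 and 131.

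Tumor-like cells carried both chains at low levels. Ifngr1 was at 36.2 CPM [34.7 to 37.7] in WT IgG and 21.2 [20.2 to 22.2] in A159V IgG, with 21.3 [20.4 to 22.3] in A159V anti-PD1. WT IgG was the high library and the intervals of the A159V libraries overlapped. The log2 ratio was -0.74 (-0.83 to -0.66) for A159V IgG over WT IgG and 0.01 (-0.08 to 0.10) for A159V anti-PD1 over A159V IgG. Ifngr2 was at 15, 16.7 and 16.6 CPM in these libraries.

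The tumor-like class was made of different clusters in the 2 genotypes. Cluster 9 held 60.4% of it in WT IgG and 6.96% in A159V IgG, with 7.66% in A159V anti-PD1, and cluster 0 held 26.7%, 66.6% and 56.2%. In WT IgG Ifngr1 was at 44.7 CPM in cluster 9, 24.0 in cluster 0 and 28.5 in cluster 8, and in A159V IgG at 41.1, 19.6 and 21.5. Within a cluster the log2 ratio for A159V IgG over WT IgG was -0.12, -0.28 and -0.39 in clusters 9, 0 and 8, each nearer to 0 than over the whole class. Stromal markers summed to 422 CPM in the tumor-like cells of WT IgG and to 133 and 97.2 CPM in those of A159V IgG and A159V anti-PD1, with T markers at 3.30 to 5.48 CPM, and their part in the result was not tested.

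The kinase Jak1 (ENSMUSG00000028530, chr4:101152367-101265282), whose gene overlaps Raver2 on the other strand, was at 523, 432, 1186 and 575 CPM in NK-like cells of WT IgG, A159V IgG, WT anti-PD1 and A159V anti-PD1 and at 216, 252, 409 and 248 in macrophage-like cells. WT anti-PD1 was the high library in both. For WT anti-PD1 over WT IgG its log2 ratio was above 0 in 10 of 10 classes, each with an interval above 0, from 0.18 in stromal-like to 1.18 (1.04 to 1.32) in NK-like cells. Jak1 and Irf1 were the 2 of 8 members past 2-fold in NK-like cells, in a comparison where 17.1% of all genes were past 2-fold higher. In monocyte-like cells Jak1 was the 1 of 8 members past it, beside 11.8% of all genes.

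WT anti-PD1 differed broadly from the other libraries. For WT anti-PD1 over WT IgG the median log2 ratio of the genes with at least 10 CPM in either library was 0.37 in NK-like and 0.20 in CD8 T-like cells. Over the genes with at least 10 CPM in both, whose median serves as the median-of-ratios size factor, it was 0.31 in NK-like and 0.18 in monocyte-like cells. Relative to that factor these calls fell short of 2-fold, with NK-like Jak1 at 0.87, NK-like Irf1 at 0.72 and monocyte Jak1 at 0.91. Stromal markers summed to 629, 633 and 603 CPM in NK-like, macrophage-like and monocyte-like cells of WT anti-PD1, and to 31.8 to 88.1 CPM in those of the other libraries, and their part in these ratios was not tested. Ribosomal protein genes gave 19.8% of NK-like UMIs in WT IgG and 11.8% in WT anti-PD1, and 18.5% and 10.3% in CD8 T-like cells. Macrophage-like cells of WT anti-PD1 lay 82.3% in cluster 5, while cluster 2 held 65.4% of those of WT IgG and 54.3% of A159V IgG, with 48.7% of A159V anti-PD1. Within cluster 2 the macrophage log2 ratio for WT anti-PD1 over WT IgG was 0.23 for Jak1 and 0.33 for Ifngr1, against 0.92 and 0.94 over the class. Monocyte-like cells of WT anti-PD1 likewise lay 52.6% in cluster 5, while cluster 1 held 56.5%, 56.6% and 54.0% of those of the others. With classes taken from clusters the monocyte Jak1 ratio was -0.030 in place of 1.09. The antibody and the make-up of this library cannot be told apart.

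Jak2 (ENSMUSG00000024789, chr19:29251828-29313080) was highest in mature dendritic-like cells in each library, at 540.4 CPM in WT IgG, 639 in A159V IgG, 1696 in WT anti-PD1 and 803 in A159V anti-PD1. In CD4 T-like cells it was at 269, 291, 891 and 343 CPM. In both classes WT anti-PD1 was past 2-fold above WT IgG, where 13.3% and 15.7% of all genes were past 2-fold higher. In WT IgG 14.1% of the mature dendritic-like cells lay in cluster 9, which held 60.4% of that library's tumor-like cells. The leading genes of the class within cluster 9 held 0 of its markers. The part of these cells in the WT IgG levels of this class, and in all ratios to them, was not tested. Tumor-like cells held 22.5, 16.1 and 20.5 CPM in WT IgG, A159V IgG and A159V anti-PD1.

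Irf1 (ENSMUSG00000018899, chr11:53770014-53778374), a transcription factor induced by interferon gamma, had its lowest library in A159V IgG in most of the classes compared. In tumor-like cells it was at 157 CPM [154 to 159.9] in WT IgG and 91.0 [89.0 to 93.0] in A159V IgG, with 147 [145 to 149.8] in A159V anti-PD1. In macrophage-like cells it was at 233, 158, 391 and 338 CPM in WT IgG, A159V IgG, WT anti-PD1 and A159V anti-PD1, and in monocyte-like cells at 388, 271, 505 and 462. In these 3 classes A159V IgG was the low library, with an interval under those of the others.

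For A159V IgG over WT IgG the Irf1 log2 ratio was below 0 in 7 of 10 classes, 6 of them with an interval below 0, and its interval was above 0 in 1, mature dendritic-like cells. For A159V anti-PD1 over A159V IgG it was above 0 in 9 of 10 classes, 6 with an interval above 0, and no interval lay below 0. The tumor ratios were -0.78 (-0.82 to -0.74) and 0.69 (0.65 to 0.73). The same directions were seen within tumor clusters 0, 8 and 9, at -0.43, -0.61 and -0.66 for the first comparison and 0.51, 0.55 and 0.82 for the second. Macrophage-like cells gave -0.56 (-0.72 to -0.39) and 1.09 (0.94 to 1.25).

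After thinning to 1500 UMIs, Irf1 was seen in 19.5%, 13.5% and 18.9% of tumor-like cells of WT IgG, A159V IgG and A159V anti-PD1, and in 26.8%, 16.7%, 40.5% and 32.2% of macrophage-like cells of WT IgG, A159V IgG, WT anti-PD1 and A159V anti-PD1. Neutrophil-like cells of WT anti-PD1 reached 2006 CPM, against 553 in WT IgG and 314 in A159V IgG, with 623 in A159V anti-PD1. In that class 4 of 7 members (Ifngr2, Jak1, Irf1 and Socs1) were past 2-fold higher for WT anti-PD1 over WT IgG, beside 23.5% of all genes. The class held 495 cells in WT anti-PD1 and 78 in WT IgG.

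Irf8 (ENSMUSG00000041515, chr8:120736358-120756694), a factor of dendritic and myeloid development, had another pattern. NK-like cells held 1079, 1166, 617 and 1265 CPM in WT IgG, A159V IgG, WT anti-PD1 and A159V anti-PD1, and WT anti-PD1 was the low library. Its CD8 T-like level was 349 CPM [322 to 378] in WT IgG, 222 [187 to 261] in A159V IgG, 122 [106 to 139.5] in WT anti-PD1 and 406 [373 to 441] in A159V anti-PD1, again with WT anti-PD1 lowest and apart from the rest. The CD8 T-like log2 ratio was -1.51 (-1.73 to -1.28) for WT anti-PD1 over WT IgG, the 1 of 8 members past 2-fold where 8.67% of all genes were past 2-fold lower. It was -0.65 (-0.91 to -0.39) for A159V IgG over WT IgG and 0.87 (0.61 to 1.13) for A159V anti-PD1 over A159V IgG. Irf8 in tumor-like cells was at 2.08 to 2.74 CPM. In neutrophil-like cells A159V IgG stood at 157 CPM from 24 UMIs in 8 cells, and the other libraries at 5.96 to 21.1.

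Irf8 was higher in CD8 T-like cells with an Ifng UMI than in those without in each library. The levels with and without an Ifng UMI were 544 and 178 CPM in WT IgG, 373 and 156 in A159V IgG, 184 and 79.6 in WT anti-PD1 and 638 and 259.9 in A159V anti-PD1. Ifngr1 was lower in the cells with an Ifng UMI in each library, as in WT IgG at 362 and 528 CPM. In NK-like cells the direction differed between libraries. Their Irf8 levels with and without an Ifng UMI were 1052 and 1088 CPM in WT IgG, 1122 and 1175 in A159V IgG, 625 and 616 in WT anti-PD1 and 1577 and 1221 in A159V anti-PD1, and Ifngr1 in A159V IgG was at 499 and 457. The cells with an Ifng UMI had the higher median depth in each library in both classes, and these values are a description.

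**Figure D4:**
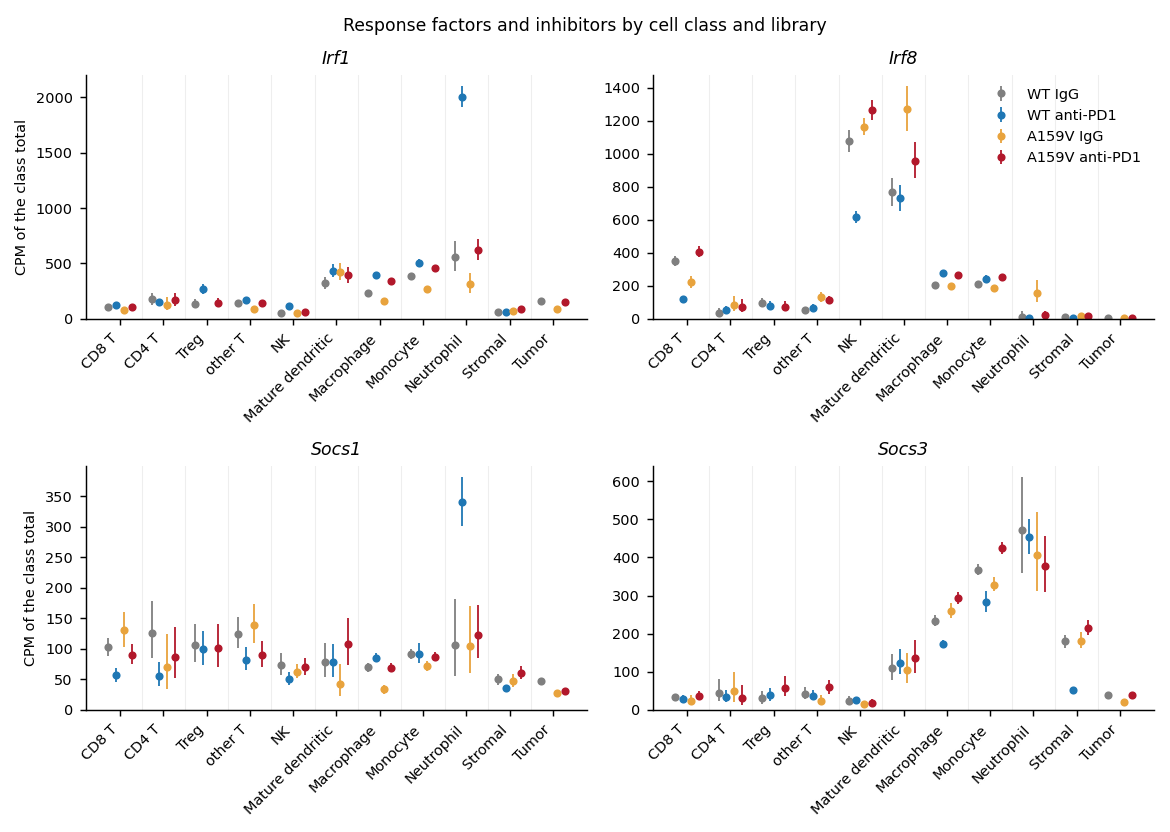
Levels of Irf1, Irf8, Socs1 and Socs3 in CPM of the class total (y axes) by cell class (x axes), 1 panel per gene and 1 point per library with its exact Poisson 95% interval. In the macrophage points A159V IgG is lowest for Irf1 (158 CPM) and Socs1 (33.6 CPM), and the neutrophil Irf1 point of WT anti-PD1 lies at 2006 CPM.

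Socs1 (ENSMUSG00000038037, chr16:10782240-10785536), an inhibitor of JAK kinases, had the same low library as Irf1 in macrophage-like cells. It was at 69.6 CPM [62.2 to 77.7] in WT IgG, 33.6 [26.9 to 41.4] in A159V IgG, 85.4 [78.4 to 92.8] in WT anti-PD1 and 68.8 [61.4 to 76.9] in A159V anti-PD1. A159V IgG lay apart below, and the intervals of WT IgG and A159V anti-PD1 overlapped. The log2 ratios were -1.03 (-1.36 to -0.70) for A159V IgG over WT IgG and 1.01 (0.68 to 1.35) for A159V anti-PD1 over A159V IgG. Socs1 was the 1 of 8 members past 2-fold in the first comparison, beside 0.927% of all genes lower, and Irf1 and Socs1 were 2 of 8 in the second, beside 1.25% of all genes higher. The Socs1 ratios were short of 2-fold in cells with more than 1000 genes (-0.96 and 0.94) and with predicted doublets kept (-0.94 and 0.90). Macrophage-like cells of the compared libraries lay in cluster 2, and in cluster 7, which held 11.2% of them in WT IgG, 28.0% in A159V IgG, with 20% in A159V anti-PD1. Within clusters 2 and 7 the Socs1 ratios were -1.17 and -1.08 for A159V IgG over WT IgG and 1.26 and 1.45 for A159V anti-PD1 over A159V IgG. The Irf1 ratios there were -0.60 and -0.92, and 1.25 and 1.40, so both genes kept their directions within clusters 2 and 7. CD8 T-like cells held it at 102, 130.2, 57.0 and 90.3 CPM, with each antibody library below the IgG library of its genotype.

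Socs3 (ENSMUSG00000053113, chr11:117966079-117970047), an inhibitor also induced by interleukin 6 type cytokines, was at 377 to 472 CPM in neutrophil-like and 283 to 424 CPM in monocyte-like cells. In stromal-like cells it was at 179.6 CPM [163 to 197] in WT IgG, 182 [162 to 203] in A159V IgG, 51.3 [48.6 to 54.2] in WT anti-PD1 and 216 [196 to 236] in A159V anti-PD1. WT anti-PD1 was the low library, and its ratio to WT IgG of -1.79 (-1.94 to -1.63) was the 1 of 8 members past 2-fold, beside 6% of all genes lower. In every library cluster 3 held most of the class, 87.3 to 97.3%. Cell states within cluster 3 were not separated, and their part in this ratio was not tested.

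In tumor-like cells none of 7 members with at least 10 CPM was past 2-fold. For A159V IgG over WT IgG 1.82% of all genes were past 2-fold higher and 3.93% lower, and for A159V anti-PD1 over A159V IgG 0.128% and 0.0465%. Besides Irf1 and Ifngr1, Socs1 was at 46.9, 27.4 and 30.9 CPM in WT IgG, A159V IgG and A159V anti-PD1, and Socs3 at 38.3, 21.4 and 40.1. Socs3 gave ratios of -0.81 (-0.89 to -0.73) and 0.88 (0.80 to 0.95). The first depended on the cluster, at 0.18, -0.25 and -0.92 in clusters 0, 8 and 9, where the second was 0.87, 0.82 and 1.01.

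**Figure D5:**
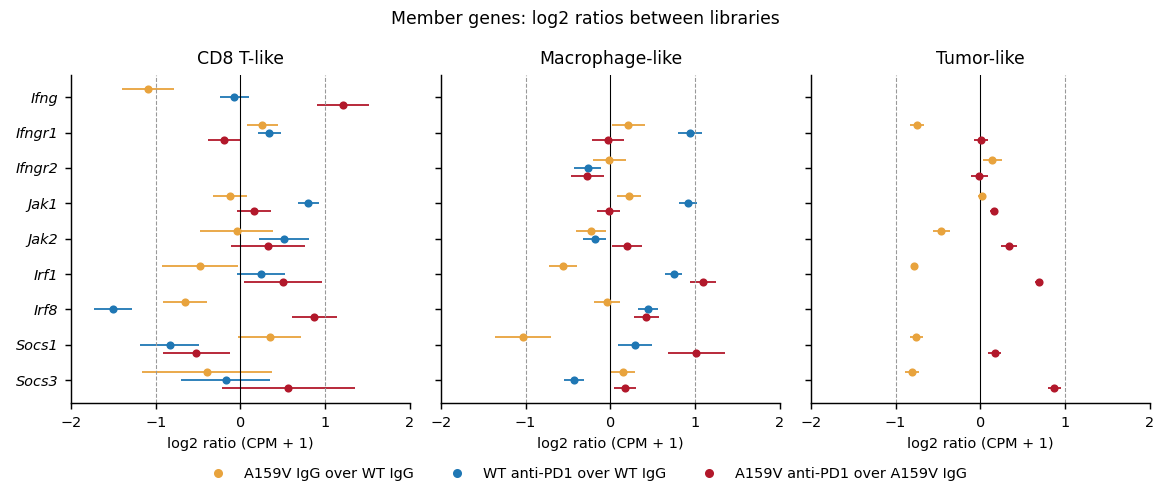
Log2 ratio of CPM + 1 for the member genes in CD8 T-like, macrophage-like and tumor-like cells, 1 color per comparison, with 95% intervals from counts. Dashed lines mark 2-fold, members under 10 CPM in both libraries are left out, and WT anti-PD1 has too few tumor-like cells for a ratio. In tumor-like cells Irf1 lies at -0.78 for A159V IgG over WT IgG and at 0.69 for A159V anti-PD1 over A159V IgG.

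The smaller classes gave further calls from few UMIs. For A159V IgG over WT IgG, CD4 T-like cells had Ifng past 2-fold lower beside 12.5% of all genes and Irf8 past it higher (13 and 8 UMIs in numerator and denominator) beside 16.5%, and T-like cells without a subset marker had Ifng lower beside 3.64% and Irf8 higher (72 and 41 UMIs) beside 6.45%. In mature dendritic-like cells Ifngr1 was higher (45 and 19 UMIs) beside 10.4%, and in neutrophil-like cells Irf8 was higher beside 36.1% of all genes. For WT anti-PD1 over WT IgG, Socs1 in CD4 T-like cells (35 and 31 UMIs) was lower beside 12.3%, Ifng in Treg-like cells (2 and 7 UMIs) lower beside 14.4%, and Ifngr2 in mature dendritic-like cells (53 and 23 UMIs) higher. For A159V anti-PD1 over A159V IgG, Ifngr2 in CD4 T-like cells (5 and 0 UMIs) was higher beside 15.5%, Ifng and Socs3 (46 and 13 UMIs) in T-like cells without a subset marker higher beside 4.99%, Socs1 in mature dendritic-like cells (34 and 12 UMIs) higher beside 12.9%, and Irf8 in neutrophil-like cells lower beside 27.7%. In the remaining comparisons no member was past 2-fold. Of all genes, 6.47% (higher) and 7.22% (lower) were past it in macrophage-like cells and 10.2% (higher) and 8.06% (lower) in T-like cells without a subset marker for WT anti-PD1 over WT IgG. In monocyte-like cells it was 0.906% (higher) and 0.719% (lower) for A159V IgG over WT IgG and 0.977% (higher) and 0.502% (lower) for A159V anti-PD1 over A159V IgG, and in stromal-like cells 1.16% (higher) and 2.07% (lower) and 2.15% (higher) and 3.47% (lower).

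Known interferon gamma targets were read from a list of 22 genes, 21 of which are in the matrices. In tumor-like cells 0 of 18 with at least 10 CPM lay above 0 for A159V IgG over WT IgG and 6 were past 2-fold lower, beside 3.93% of all genes, with a median log2 ratio of -0.64 beside -0.02 over all genes. For A159V anti-PD1 over A159V IgG 18 of 18 lay above 0 and 5 were past 2-fold higher, beside 0.128%, with a median of 0.64 beside 0.08. H2-Aa, an MHC class II chain, was the lowest in the first and the highest in the second, at 23.0 CPM in WT IgG and 2.0 in A159V IgG, with 11 in A159V anti-PD1. The other ends were Cxcl10, a T cell attracting chemokine (-0.20), and H2-D1, an MHC class I chain (0.15). Within clusters 0, 8 and 9 the first comparison had 0 of 16, 0 of 18 and 0 of 18 targets above 0, with medians of -0.44, -0.52 and -0.48, and the second 15 of 16, 17 of 18 and 15 of 18, with medians of 0.48, 0.47 and 0.70. Cxcl10 was highest in cluster 8, which held 11.9% of the class in WT IgG and 25.4% in A159V IgG, with 35.1% in A159V anti-PD1. Its ratios within clusters 0, 8 and 9 were -0.55, -0.28 and -0.41 in the first comparison, each lower than over the class, and -0.16, -0.14 and 0.05 in the second, against 0.19 over the class. The clustering left out the members but not the targets. Macrophage markers in the tumor-like cells of these libraries summed to 9.75, 6.85 and 8.41 CPM, and their part in the H2-Aa values was not tested.

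In macrophage-like cells 1 of 20 targets lay above 0 for A159V IgG over WT IgG and 5 were past 2-fold lower, beside 0.927% of all genes, with a median of -0.36 beside -0.01. For A159V anti-PD1 over A159V IgG 17 of 20 lay above 0 and 8 were past 2-fold higher, beside 1.25%, with a median of 0.50 beside -0.02. In clusters 2 and 7 alone the first comparison had 3 of 20 and 4 of 18 above 0, with medians of -0.33 and -0.28, and the second 17 of 20 and 17 of 19, with medians of 0.51 and 0.85. Cxcl9, a chemokine that interferon gamma induces, was the lowest in the first and the highest in the second, at 269.8 CPM in WT IgG and 30.9 in A159V IgG, with 85.4 in WT anti-PD1 and 153 in A159V anti-PD1. Cd274, the gene of the PD1 ligand, was the highest in the first (0.32), and H2-K1, an MHC class I chain, the lowest in the second (-0.21). For WT anti-PD1 over WT IgG 2 of 20 were past 2-fold higher and 2 lower, near the 6.47% and 7.22% of all genes, from -1.65 for Cxcl9 to 1.15 for Gbp4, an interferon-induced GTPase, with a median of -0.10 beside -0.06. The list differed between classes in this comparison. In stromal-like cells 2 of 18 were higher and 7 lower, beside 4.32% and 6% of all genes, with a median of -0.91 beside 0.01. In mature dendritic-like cells 7 of 21 were higher and 2 lower, beside 13.3% and 28.6%, with a median of 0.52 beside -0.20.

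Monocyte-like cells gave target medians of -0.28 beside 0.02 for A159V IgG over WT IgG and 0.31 beside 0.03 for A159V anti-PD1 over A159V IgG. Their Cxcl9 level was 146 CPM in WT IgG and 25.6 in A159V IgG, with 269 in WT anti-PD1 and 123 in A159V anti-PD1. In CD8 T-like cells the target medians were 0.07 beside 0.03 and -0.05 beside 0.05 for the same comparisons. In the first comparison 2 of 18 were past 2-fold higher and 0 lower, beside 3.69% and 2.64% of all genes, and in the second 1 was higher and 2 lower, beside 3.57% and 3.04%. H2-Aa was at 36.5 CPM in WT IgG, 94.6 in A159V IgG, 22.8 in WT anti-PD1 and 41.5 in A159V anti-PD1, the highest target in the first comparison (1.35) and the lowest in the second (-1.17). Gbp2, an interferon-induced GTPase, was the lowest in the first (-0.96) and the highest in the second (1.5). Macrophage markers in CD8 T-like cells summed to 19.7, 38.8, 34.8 and 29.1 CPM in WT IgG, A159V IgG, WT anti-PD1 and A159V anti-PD1, and their part was not tested.

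A list of 13 other signal transducers and brakes had 10 genes with at least 10 CPM in tumor-like cells, none past 2-fold in either comparison. The median was -0.34 beside -0.02 for A159V IgG over WT IgG, from Pias1, an inhibitor of cytokine signaling (-0.73), to Ptpn11, a phosphatase gene (0.17). It was 0.20 beside 0.08 for A159V anti-PD1 over A159V IgG, where Ptpn1, another phosphatase gene, was the lowest (-0.01). In macrophage-like cells Usp18, a brake on type I interferon signaling, was the lowest for WT anti-PD1 over WT IgG (-2.20). It was at 148 CPM in WT IgG and 31.4 in WT anti-PD1, beside 7.22% of all genes past 2-fold lower. The low value was not particular to macrophage-like cells. For this comparison Usp18 was also the lowest of the list in every other class compared except mature dendritic-like cells. In those classes its ratio ran from -3.43 in neutrophil-like to -0.99 in NK-like cells.

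The genes whose log2 levels followed each member most closely over the 47 profiles were named by Pearson's r among 14212 genes, as a description. For Ifng they were Klrc1 (0.91), Cd96 (0.90) and Fasl (0.90), and for Ifngr1 Prkch (0.92), Exoc2 (0.91) and Ms4a4b (0.90). For Irf1 they were Ppp1r15a (0.92), Nampt (0.92) and Kdm6b (0.91), for Socs3 Bach1 (0.91), Atf3 (0.91) and Lamp2 (0.90), and for Socs1 Tnfrsf1b (0.75), Ifi47 (0.73) and Slc9a3r1 (0.73). Ifngr2 was closest to Tifa (0.87), Jak1 to A330023F24Rik (0.84), Jak2 to Zfand3 (0.88) and Irf8 to Sh3bp1 (0.82).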

How the data were processed

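The deposited files are UMI counts per gene and barcode of 4 libraries (10x 3' chemistry version 3.1), made by the authors with Cell Ranger on mm10, introns included. The matrix headers and the methods name version 7.2.0 and 7.2, and the submitters' processing notes version 5.0.1. These counts precede the removal of ambient RNA and doublets that the study describes. Here cells with over 500 genes were kept, doublets predicted against simulated ones (374 to 631 a library) were removed, and cells were classed by fixed markers under a scoring rule that was rewritten after its output was seen. Clusters came from 2000 variable genes, 20 principal components and Leiden clustering at resolution 1. Counts were summed per class and library as CPM, ratios used a pseudocount of 1 CPM, and classes under 50 cells were left out of ratios. Neither introns nor ambient RNA were removed, so long genes and abundant transcripts of other cells add to the counts. Libraries held 54402632 to 125227747 UMIs.

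The members and lists were chosen with earlier results of these data known. All members are named. Genes of the 3 lists (signal transducers and brakes, targets, inducers) are named only at the ends of a list, 1 such gene is not reported here, Il12rb2, Cxcl9 and H2-Aa are given in each library compared where they are named, the values of Cxcl10 within clusters were chosen after their values were seen, and the 3 genes most like a member by Pearson's r are named. The ratio step was tested on simulated independent Poisson counts. The intervals assume the same model, so that test could not show the effect of UMIs concentrated in few cells. Tools were python 3.11.15, numpy 2.4.6, pandas 2.3.3, scipy 1.17.1, scikit-learn 1.9.0, leidenalg 0.10.2, igraph 0.11.9 and matplotlib 3.10.9. Alternatives were other filters, doublets kept, classes from clusters, median-of-ratios scaling, per-cell means, a pseudocount of 0.1 CPM and other thinning depths.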

Additional observations from a re-analysis of the deposited data

Results flagged for a closer look

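In 8 pairs of ratios the interval of WT anti-PD1 over WT IgG lay on one side of 0 and that of A159V anti-PD1 over A159V IgG on the other. The difference between the genotypes was not tested, since each group has 1 library. In CD8 T-like cells the log2 ratios in WT and in A159V were 0.34 and -0.19 for Ifngr1 and -1.51 and 0.87 for Irf8, and in NK-like cells -0.80 and 0.12 for Irf8. In macrophage-like cells they were -0.19 and 0.19 for Jak2 and -0.43 and 0.17 for Socs3. Socs3 gave -0.38 and 0.37 in monocyte-like cells and -1.79 and 0.24 in stromal-like cells, where Jak2 gave -0.23 and 0.34. WT anti-PD1 is the library with 7 tumor-like and 1729 stromal-like cells, and the part of its make-up in these values was not tested.

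Cells that no class took, which enter no comparison, held members above their level in the unassigned cells of WT IgG by more than counting error. Only levels above WT IgG were looked for, so members below it are not listed. Ifngr1 was at 313 CPM in A159V IgG, 343 in WT anti-PD1 and 343 in A159V anti-PD1, against 217 in WT IgG. Jak1 was at 624 CPM in WT anti-PD1 and 434 in A159V anti-PD1, against 316. Jak2 was at 250.2 and Irf1 at 388 CPM in WT anti-PD1, against 189 and 257. Irf8 was at 357 CPM in A159V IgG, with 324 in A159V anti-PD1, against 247.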

How the results depend on the processing

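For the 8 log2 ratios of Ifng in CD8 T-like and NK-like cells and of Ifngr1 in tumor-like cells, 81 alternative values were formed. Of these, 74 stayed within the counting interval of the reported value, 7 moved and 0 turned direction. For these and the other ratios a turn was counted only where the reported ratio was past 2-fold or its interval excluded 0. Ratios whose interval spanned 0 could be counted as moved but not as turned. The CD8 T-like Ifng ratio was -0.27 for WT anti-PD1 over WT IgG with median-of-ratios size factors, and 0.85 for A159V anti-PD1 over A159V IgG as the mean of each cell's CPM. The tumor Ifngr1 ratio for A159V IgG over WT IgG was -0.52 in cells with no UMI of Ptprc, Col1a1, Col1a2, Col3a1 or Dcn, and -0.28, -0.39 and -0.12 in clusters 0, 8 and 9. For A159V anti-PD1 over A159V IgG it was -0.51 in cluster 9, opposite in sign to the value over the class and counted as moved. The share of genes past 2-fold in 1 direction had a median of 6.03% over all classes, comparisons and directions. With genes of at least 1 CPM it was 11.8%. Of 189 values for 19 other ratios, 40 moved and 2 turned direction, Socs3 in tumor cluster 0 for A159V IgG over WT IgG (0.18) and Jak1 in monocyte-like cells with classes from clusters (-0.030). Of 22 values for shares of cells at another depth, 16 moved. A UMI is seen in more cells at greater depth by construction. The cause of the moves was not otherwise tested. The single-cluster alternatives, also of the target list, and the ribosomal and non-Ifng alternatives were chosen after seeing the data. No paired analysis was possible because each group has 1 library, and for the same reason no replicate could be left out.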
